A study of Homo sapiens with 2 samples.

Results

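Small noncoding RNA genes were taken from the gene tables of 1 library of live and 1 library of processed Stage 6 cells. Entries were chosen by name and by measured level. The names were U1 to U8, Y_RNA and 7SK, and names that begin with RNU, SNORA, SNORD, SCARNA or MIR and a number, without the host transcripts whose names end in HG. Entries were then selected on an FPKM (fragments per kilobase of transcript and scaled by library size) of at least 1 in at least one library. Of 55797 genes in the tables, 5355 carried such a name and 50 passed the level. At this level 36 were detected in live cells, 34 in processed cells and 20 in both, so 30 of the 50 were detected in 1 library alone.

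Both libraries came from the established embryonic stem cell line H1 of human origin, grown on matrigel in mTeSR medium and taken through a stepwise differentiation to Stage 6, a mixed culture that holds insulin-expressing cells. RNA of the live sample was extracted with the RNeasy protocol from cells that were neither fixed nor sorted. The processed sample, which followed MARIS, was fixed with 4% paraformaldehyde, permeabilized and stained with antibody. It was then passed through the sorter with every cell kept, and its RNA was extracted with a modified RecoverAll procedure. Both RNAs were poly-A purified according to the study's methods. Reads were pairs of 80 nt. The pancreatic markers were present in both libraries, with INS at 98.3 FPKM in live cells versus 121 FPKM after processing and PDX1 at 66.5 and 72.1 FPKM. Of 13 markers of endocrine, acinar, liver, mesenchymal and pluripotent cells, 12 lay within 2-fold, and NANOG, a pluripotency factor, was listed at 1.27 and 7.34 FPKM. The part of cell makeup in the differences below was not tested. With 1 library per condition, no difference below has a replicate check and none was tested. In cultures measured in bulk, fewer cells of a type and less RNA per cell cannot be told apart.

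The U RNAs of the spliceosome (U1, U2, U4 and U6) pair with the ends and the branch point of introns and with each other while introns are removed. Small nucleolar RNAs (snoRNAs) guide chemical modification of ribosomal RNA and of U RNAs, box C/D RNAs by methylation and box H/ACA RNAs by pseudouridylation, and a few of them, U3 among them, take part in cutting the ribosomal precursor. Cajal body RNAs (scaRNAs) guide the same reactions on the U RNAs, 7SK RNA holds a transcription elongation factor inactive, and microRNAs are cut from hairpins to repress mRNAs. Most of these RNAs carry no poly-A tail in the cell, and many exist in numerous genomic copies.

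The U1 sequences are shown because 9 genes of the set carry them almost unaltered. The 164 bases of RNU1-1 recurred without a difference in RNU1-2, RNU1-3, RNU1-4, RNU1-5, RNU1-7 and RNU1-8. RNU1-6 and RNU1-9 differed from it by T150C, with positions counted from 1 at the 5′ end of RNU1-1. Sequences below are 5′ to 3′ from GRCh37, the build of the tables, and capitals mark the stretch that pairs with the 5′ splice site and position 150.
RNU1-1, chr1:16840617-16840780, minus strand: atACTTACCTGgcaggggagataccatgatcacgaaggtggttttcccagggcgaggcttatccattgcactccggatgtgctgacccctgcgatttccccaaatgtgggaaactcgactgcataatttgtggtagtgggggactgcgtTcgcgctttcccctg
RNU1-6, chr1:147511004-147511167, minus strand: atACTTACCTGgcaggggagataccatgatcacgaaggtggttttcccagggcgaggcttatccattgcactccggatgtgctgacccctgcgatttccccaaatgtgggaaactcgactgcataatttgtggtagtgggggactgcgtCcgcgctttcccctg

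The U2 family is shown for the unequal fit of its entries to U2 RNA. Capitals mark GTAGTA, the stretch that pairs with the intron branch point, which was found in RNU2-2 and the entry of chromosome 10 but not in the entry of chromosome 6. Identity to RNU2-2 over 191 bases was 92.7% for the former and 87.4% for the latter.
RNU2-2, chr11:62609091-62609281, minus strand: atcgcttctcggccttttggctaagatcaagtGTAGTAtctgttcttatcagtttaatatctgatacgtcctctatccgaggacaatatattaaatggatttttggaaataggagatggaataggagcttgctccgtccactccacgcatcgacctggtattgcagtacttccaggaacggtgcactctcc
U2 entry of chromosome 10, chr10:103124602-103124792, minus strand: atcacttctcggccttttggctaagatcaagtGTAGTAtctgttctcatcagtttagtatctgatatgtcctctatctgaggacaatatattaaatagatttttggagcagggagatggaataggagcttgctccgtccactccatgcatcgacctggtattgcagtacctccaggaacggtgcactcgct
U2 entry of chromosome 6, chr6:89773219-89773409, minus strand: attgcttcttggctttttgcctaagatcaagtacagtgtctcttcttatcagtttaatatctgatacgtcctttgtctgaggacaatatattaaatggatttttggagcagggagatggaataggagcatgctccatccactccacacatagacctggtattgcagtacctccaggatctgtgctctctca

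The neighbouring U4 genes are shown as a nearly identical pair. RNU4-2 was higher in processed cells, and RNU4-1 was detected in live cells alone, so the rule set the direction of RNU4-1. They differed by T37C, A88G, A99C and T113C, counted from the 5′ end of RNU4-2 with its base first, and capitals mark these 4 positions.
RNU4-2, chr12:120729566-120729706, minus strand: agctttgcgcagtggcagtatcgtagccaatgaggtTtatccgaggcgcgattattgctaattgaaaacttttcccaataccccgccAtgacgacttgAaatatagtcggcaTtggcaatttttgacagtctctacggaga
RNU4-1, chr12:120730900-120731040, minus strand: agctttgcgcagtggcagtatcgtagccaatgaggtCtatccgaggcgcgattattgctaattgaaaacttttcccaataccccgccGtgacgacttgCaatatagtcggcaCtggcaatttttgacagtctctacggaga

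Of the snoRNAs that were listed at or near 0 in a single library, 5 are shown with their boxes in capitals. These are TGATGA (box C) and CTGA (box D) in the box C/D RNAs, and ACA close to the 3′ end in the box H/ACA RNAs.
SNORD10, chr17:7480129-7480270, plus strand: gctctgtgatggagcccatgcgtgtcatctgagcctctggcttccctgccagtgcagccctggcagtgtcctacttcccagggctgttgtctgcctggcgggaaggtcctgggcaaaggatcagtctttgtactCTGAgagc
SNORD94, chr2:86362993-86363129, plus strand: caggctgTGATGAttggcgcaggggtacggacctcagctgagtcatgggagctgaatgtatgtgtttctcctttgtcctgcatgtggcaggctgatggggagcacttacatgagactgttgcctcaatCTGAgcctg
SNORD17, chr20:17943353-17943589, minus strand: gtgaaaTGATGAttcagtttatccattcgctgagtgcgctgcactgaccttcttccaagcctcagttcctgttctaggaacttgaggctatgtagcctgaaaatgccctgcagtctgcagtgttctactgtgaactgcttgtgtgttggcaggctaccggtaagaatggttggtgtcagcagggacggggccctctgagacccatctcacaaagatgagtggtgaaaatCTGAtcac
SNORA2B, chr12:49061240-49061376, minus strand: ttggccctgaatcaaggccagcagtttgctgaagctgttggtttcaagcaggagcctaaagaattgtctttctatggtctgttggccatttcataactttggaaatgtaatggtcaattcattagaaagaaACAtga
SNORA51, chr20:2635713-2635844, plus strand: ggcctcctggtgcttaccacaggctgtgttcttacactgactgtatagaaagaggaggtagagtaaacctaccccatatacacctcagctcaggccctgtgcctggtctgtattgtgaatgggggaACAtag

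For microRNAs, mature sequences were taken from RefSeq on GRCh38.p14, with the seed (bases 2 to 8) in capitals. They are shown for 4 of the 5 entries with the most FPKM and for hsa-miR-3179, which has 3 entries. MIR3648 is given by name only.
hsa-miR-622: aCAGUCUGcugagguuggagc
hsa-miR-492: aGGACCUGcgggacaagauucuu
hsa-miR-4426: gAAGAUGGacguacuuu
hsa-miR-3615: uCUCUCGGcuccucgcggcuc
hsa-miR-3179: aGAAGGGGugaaauuuaaacgu
No seed was shared between different microRNA names. Of the 13 entries with a MIR name, 12 were matched in RefSeq, and the span of 9 held the mature sequence. Those of MIR3615 and MIR4519 held it on the strand opposite to the annotated gene. It was not found in the spans of the MIR4454 entries or of MIR3179-3.

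Each motif was searched on both strands of the 4951 regions of at most 300 bases that carry a name of the rule, leaving out chromosome 8. Entries of the set were searched on their annotated strand alone, so the 2 kinds of share come from unlike searches. ACTTACCTG was found in 9 of 9 U1 entries of the set and in 0.929% of all these regions. GTAGTA was found in 2 of 3 U2 entries and 3.09% of the regions. TGATGA was found in 6 of 7 box C/D entries, U3 included, and 10.4% of the regions. CTGA, which is short, was found in 7 of 7 and in 63.6%. The exact TGATGA was not in SNORD10, and a match is only a match of letters.

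Most names of the rule were listed at 0 in both libraries. An exact 0 can be a failed estimate and is given here as a listing. Of the 5355, 5271 (98.4%) were listed at 0 in both. Above 0 were 73 in the live library and 55 in the processed one. All 801 Y_RNA entries were listed at 0 in both, as were all 112 U7 entries, all 26 U8 entries and the 116 entries of other RNU genes, among them RNU5A-1, RNU5B-1, RNU11 and RNU12. U6 was the most numerous spliceosomal name, and 1322 of its 1328 entries were listed at 0 in both. The 50 detected entries summed to 2439 FPKM before and 2244 FPKM after processing, 0.478% and 0.449% of all FPKM. The sums were close while single entries differed greatly in opposite directions. Entries of at most 120 bases went from 1877 to 164 FPKM. Those of over 120 and at most 300 bases went from 342 to 1841 FPKM. The close sums therefore do not show an unchanged set.

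On log2((processed FPKM + 1)/(live FPKM + 1)), which compresses differences between low values, 28 of the 50 entries (56%) lay above the 2-fold line in the processed library, against 6.57% of the 17326 genes detected at the same level. Below the lower 2-fold line were 16 (32%), against 6.19%, and 6 lay between. The median log2 ratio was 1.37, and over all detected genes it was -0.09. The median of the entries was 0.32 with a pseudocount of 10, 0.50 at a threshold of 0.1 FPKM and 0.72 with RNU1-1 as the sole RNU1 gene. Counts with a pseudocount of 10, for which the share of all genes was not computed, were 18 higher and 7 lower. Without the names that many loci share, 8 were lower. These counts come from the same values that chose the entries. An entry that passed through a single library had to differ, so nothing is read from the counts beyond the entries themselves. Listed at 0 in processed cells and above 0 in live cells were 15 entries (30%), against 1.26% of detected genes. Listed at 0 in live cells alone were 4 (8%), against 0.675%.

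The tables give each FPKM a lower and an upper bound, whose level is not stated, and a status. The bounds of live and processed cells did not overlap for 28 entries (56%), against 71.8% of detected genes, and 18 of these lay above the 2-fold lines and 4 below. Those 4 were listed at 0 in processed cells with both bounds at 0, so any live lower bound above 0 set them apart. The status was OK in both libraries for 31 entries. It was LOWDATA for the other 19, which all had a lower bound of 0 in both libraries, so their intervals could not separate. LOWDATA entries included RNU2-2, SNORD3A, MIR492, MIR622 and the 6 box H/ACA and other box C/D entries.

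**Figure D1:**
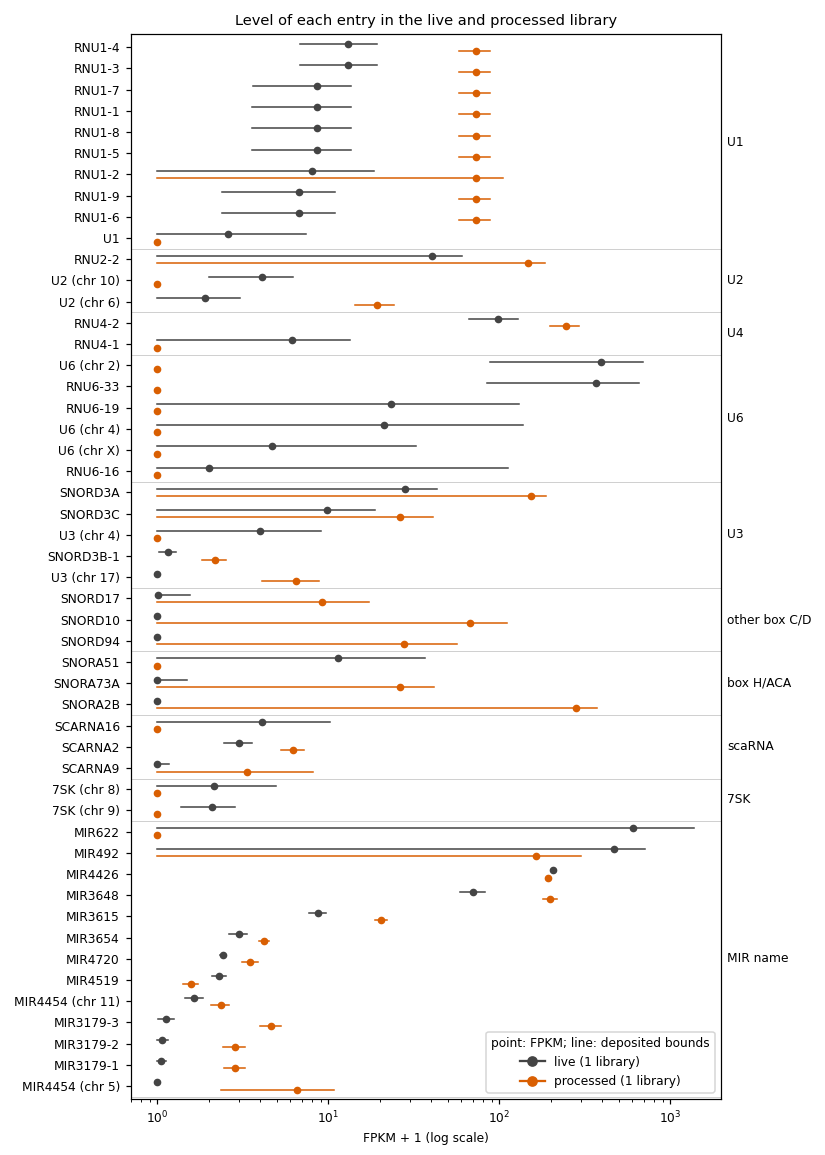
FPKM + 1 of the 50 entries on a log axis, grouped by RNA class, in live cells (grey) and processed cells (orange), 1 library each. Points are FPKM and lines the deposited bounds; 9 U1 genes lie together at a higher level in processed cells, and all 6 U6 entries lie at 0 FPKM there.

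U1 RNA recognizes the 5′ splice site. In live cells the 9 RNU1 genes had between 5.69 FPKM (RNU1-6 and RNU1-9) and 12.1 FPKM (RNU1-4), and in processed cells between 71.6 and 72.3 FPKM. Every RNU1 gene was thus higher in processed cells and the ranges did not overlap. RNU1-1, at chr1:16840617-16840780, had 7.54 FPKM (bounds 2.59 to 12.5) in live cells versus 72.1 FPKM (bounds 57.1 to 87.1) in processed cells, a log2 ratio of 3.10. Bounds were apart for 8 of the 9, the exception being RNU1-2, whose lower bound was 0 in both libraries. Summed over the 9 genes, U1 went from 72.7 to 647 FPKM, 8.89 times. Since the genes share all or nearly all of their bases, reads cannot be assigned to single copies, and the 9 values are not 9 separate measurements. In live cells both genes with the C at position 150 had 5.69 FPKM and the 7 with the T had 7.06 to 12.1 FPKM, with overlapping bounds and a wider spread among the 7 identical genes. In processed cells the same genes were within 1 FPKM of each other. One further U1 entry, at chr8:129011377-129011540 within PVT1, a long noncoding RNA gene, had 1.58 FPKM in live cells and was listed at 0 in processed cells. The rule set the direction of this entry.

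U2 RNA binds the branch point. RNU2-2, at chr11:62609091-62609281 within an exon of WDR74, had 39.2 FPKM in live cells (upper bound 59.3) and 146 FPKM in processed cells (upper bound 184), a log2 ratio of 1.87. The U2 entry at chr6:89773219-89773409, the least like RNU2-2, had 0.906 FPKM (upper bound 2.03) in live cells versus 18.3 FPKM (13.3 to 23.3) in processed cells. Its bounds were apart. The entry at chr10:103124602-103124792 in BTRC went from 3.09 FPKM (0.997 to 5.17) to a listing of 0. It was detected in live cells alone and the chromosome 6 entry in processed cells alone, so the rule set their directions.

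U4 RNA travels with U6 into the spliceosome. RNU4-2, at chr12:120729566-120729706, had 96.8 FPKM (65.4 to 128) in live cells versus 245 FPKM (196 to 293) in processed cells. The log2 ratio was 1.33 and the bounds were apart. Its neighbour RNU4-1, at chr12:120730900-120731040, identical at 97.2% of 141 bases, had 5.09 FPKM (upper bound 12.3) in live cells and was listed at 0 in processed cells. RNU4-1 was detected in live cells alone, so the rule set its direction and nothing is read from its contrast with RNU4-2.

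U6 RNA forms the catalytic centre of the spliceosome. It was the only spliceosomal RNA of the set with no entry above 0 in processed cells. All 6 U6 entries therefore entered through the live library alone, and the rule set their direction. The entry at chr2:175422694-175422800 had 391 FPKM (86.8 to 696) in live cells and RNU6-33, at chr4:89605999-89606105, 368 FPKM (83.4 to 653). These 2 had bounds apart from the listing of 0, which can be a failed estimate. The other 4 had lower bounds of 0: RNU6-19 had 22.2 FPKM, the entry at chr4:39299225-39299331 20.1 FPKM, the entry on chromosome X 3.66 FPKM and RNU6-16 1.0 FPKM. Their upper bounds were wide, reaching 137 FPKM for the chromosome 4 entry, 130 FPKM for RNU6-19 and 111 FPKM for RNU6-16. The name U6 is shared by many entries, so the assignment of reads to single copies is uncertain here too.

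**Figure D2:**
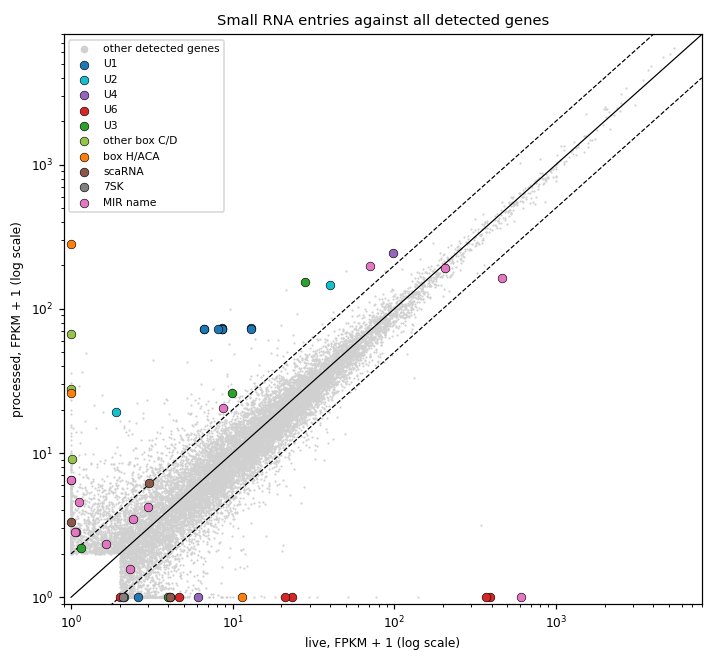
Live against processed FPKM + 1 on log axes for the 50 small RNA entries (coloured by class) and the other detected genes (grey), 1 library each, with the line of equality and dashed 2-fold lines. The 9 RNU1 genes lie above the upper line at 71.6 to 72.3 FPKM in processed cells, and U6 entries lie along the lower edge.

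U3 RNA is a box C/D RNA needed for early cutting of the ribosomal precursor. SNORD3A, at chr17:19091329-19091544, had 26.9 FPKM (upper bound 42.0) in live cells versus 151 FPKM (upper bound 187) in processed cells, a log2 ratio of 2.45. SNORD3C, which differs from SNORD3A by G108A over 216 bases, had 8.86 FPKM (upper bound 17.7) and 25.3 FPKM (upper bound 39.9). Both lay above 2-fold, with lower bounds of 0 in both libraries. The 216-base entries of SNORD3B-1, SNORD3B-2 and SNORD3D had at most 0.133 FPKM in either library. Longer entries overlap SNORD3A and SNORD3C under the same names. That of SNORD3A, over 699 bases, had 0.516 FPKM in live cells, and that of SNORD3C, over 581 bases, 0.924 FPKM. Each was practically 0 in processed cells, so the division of reads between overlapping entries is uncertain. SNORD3B-1, an entry of 583 bases, had 0.150 FPKM (0.0215 to 0.279) and 1.18 FPKM (0.826 to 1.53). Its bounds were apart and its log2 ratio on this scale stayed within 2-fold. The 2 entries named only U3 were less like SNORD3A. The one at chr17:42102389-42102591 (73.7% identity) was listed at 0 in live cells and had 5.46 FPKM (3.08 to 7.84) in processed cells. The one on chromosome 4 (76.6%) had 2.97 FPKM in live cells and was listed at 0 in processed cells. SNORD3B-1 and both of these entries were detected in 1 library alone, so the rule set their direction.

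The other box C/D RNAs were SNORD10, SNORD94 and SNORD17, and all 3 were higher in processed cells. All 3 reached the threshold in processed cells alone, so the rule set their direction. SNORD10 and SNORD94 guide methylation of U6 RNA. SNORD10, at chr17:7480129-7480270, was listed at 0 in live cells and had 66.2 FPKM (upper bound 110) in processed cells. SNORD94, at chr2:86362993-86363129, was likewise listed at 0 and had 26.6 FPKM (upper bound 55.5). SNORD17, at chr20:17943353-17943589, had 0.0138 and 8.13 FPKM. Lower bounds were 0 for all 3 in both libraries.

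Among box H/ACA RNAs, SNORA2B, at chr12:49061240-49061376, had the highest processed level of the whole set, 280 FPKM (upper bound 372), and was listed at 0 in live cells. SNORA73A, also called U17 and needed for the cutting of the ribosomal precursor, was effectively at 0 in live cells (upper bound 0.498) and had 25.1 FPKM (upper bound 40.2) in processed cells. SNORA51, at chr20:2635713-2635844, went the other way, with 10.4 FPKM (upper bound 35.6) in live cells and a listing of 0 in processed cells. None of the box H/ACA entries was detected in both libraries, so the rule set the direction of each and nothing is read from it.

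SCARNA2 and SCARNA9 guide modification of U2 RNA in Cajal bodies. SCARNA2, which spans 420 bases at chr1:109642815-109643234, had 2.02 FPKM (1.45 to 2.59) in live cells versus 5.24 FPKM (4.29 to 6.18) in processed cells. Its bounds were apart and its log2 ratio was 1.05. SCARNA9 had 0.000627 and 2.33 FPKM, with lower bounds of 0. SCARNA16 had 3.10 FPKM (upper bound 9.18) in live cells and was listed at 0 in processed cells. SCARNA9 and SCARNA16 were each detected in 1 library alone, so the rule set their direction.

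The 7SK entries that met the rule were low copies and not the gene RN7SK. The entry on chromosome 9 had 1.10 FPKM (0.369 to 1.83) in live cells and that on chromosome 8 had 1.13 FPKM (upper bound 3.92), and both were listed at 0 in processed cells. These copies were detected in live cells alone, so the rule set their direction. Of all 287 entries named 7SK, 4 were above 0 in live cells alone and 3 in processed cells alone. RN7SK itself, at chr6:52860418-52860748, bears a name outside the rule and was chosen after its values were seen. It had 8.64 FPKM in live cells versus 98.6 FPKM in processed cells. RN7SL1, the RNA of the signal recognition particle, was chosen in the same way and had 6.60 FPKM in live cells and practically 0 in processed cells.

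The entries nearest to the threshold were of this low kind. Just inside lay RNU6-16 at 1.0 FPKM and the 7SK entries at 1.10 and 1.13 FPKM, all in live cells. Just outside lay U1 entries of chromosome 1 at 0.975 and 0.874 FPKM and the 581-base entry of SNORD3C at 0.924 FPKM.

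The MIR names did not mark a set of microRNA hairpins. Of the 13 entries, 10 spanned over 300 bases, and GENCODE release 44 gives the type miRNA to 3 of them, MIR622, MIR492 and MIR3648. Separate hairpin entries of MIR3615 (87 bases), MIR4519 (58 bases) and MIR4720 (76 bases) were listed at 0 in both libraries. The values below therefore belong to the annotated entries and not to mature microRNAs, whose 17 to 23 bases are shorter than a read.

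MIR622, at chr13:90883436-90883531, had the highest live level of the set, 604 FPKM, with bounds from 0 to 1377, and was listed at 0 in processed cells. MIR492, at chr12:95228174-95228289, had 466 FPKM (0 to 709) in live cells versus 164 FPKM (0 to 299.97) in processed cells. Both lie in exons of keratin pseudogenes, KRT18P27 and KRT19P2, and these host entries had at most 0.692 FPKM in either library. The bounds of neither microRNA entry separated the libraries, and the rule set the direction of MIR622, detected in live cells alone.

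MIR4426 and MIR3648 had bounds well above 0 in both libraries. MIR4426, at chr1:192685313-192685783, is annotated in GENCODE release 44 as RPS27AP5, a processed pseudogene. It had 204 FPKM (199 to 209) in live cells versus 190.4 FPKM (185 to 196) in processed cells, so that its bounds were apart although the log2 ratio was only -0.10, and 0.00198 once the median ratio of genes detected in both libraries was set to no change. MIR3648, at chr21:9825832-9826011, had 69.5 FPKM (58.1 to 80.9) and 197 FPKM (178 to 216), a log2 ratio of 1.49.

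The longer MIR entries had low levels. The MIR3179 and MIR4454 entries reached the threshold in processed cells alone and MIR4519 in live cells alone, so the rule set their direction. MIR3615, MIR3654 and MIR4720 were detected in both libraries and had the larger value in processed cells. MIR3615, annotated in release 44 as SLC9A3R1-AS1 over 1594 bases, had 7.72 FPKM (6.75 to 8.69) and 19.4 FPKM (17.8 to 21.0). The library is not stated to keep strand, so reads from a gene and from its opposite strand cannot be told apart there. MIR3179-1, MIR3179-2 and MIR3179-3 had 0.0540, 0.0703 and 0.127 FPKM in live cells and 1.84, 1.83 and 3.60 FPKM in processed cells. All 3 were higher with bounds apart. How reads were divided among these like-named entries is not stated. The MIR4454 entry of chromosome 5 was effectively at 0 in live cells and had 5.54 FPKM (1.36 to 9.73) in processed cells, whereas that of chromosome 11 had 0.647 and 1.35 FPKM. MIR3654 had 1.98 and 3.21 FPKM and MIR4720 1.43 and 2.50 FPKM, both within 2-fold. MIR4519 had 1.30 FPKM (1.07 to 1.53) in live cells versus 0.564 FPKM (0.411 to 0.718) in processed cells.

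Entries were also grouped by span, although the rule set the direction of those detected in 1 library alone. All 8 entries of at most 120 bases, the 6 U6 entries with MIR622 and MIR492, lay beyond 2-fold on the lower side in processed cells, and 7 were listed at 0 there and had entered through the live library alone. Of the 28 entries of over 120 and at most 300 bases, 21 lay above the upper 2-fold line and 7 below the lower one, and all 7 of the lower ones were listed at 0 in processed cells. Of these 28 entries, 14 were detected in both libraries and all 14 were higher. Of the 14, 9 were the RNU1 genes, whose values are not 9 separate measurements. The rest were RNU2-2, RNU4-2, SNORD3A, SNORD3C and MIR3648, and the lower bounds of RNU2-2, SNORD3A and SNORD3C were 0 in both libraries. The FPKM of the 28 summed to 342 in live and 1841 in processed cells, 5.38 times. Of the 14 entries over 300 bases, 7 were higher, 1 was lower and 6 lay within 2-fold. Span was described after the values were seen, and no test was made.

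Other detected genes of similar span are given for the same classes. Among the 164 other genes of over 120 and at most 300 bases, 22.6% were past 2-fold upwards and 42.1% downwards. Only 75 of them were detected in both libraries, and the share of the 75 past 2-fold was not computed. The 14 of 14 entries detected in both therefore have no like background here. Only 2 other detected genes spanned at most 120 bases, and both were listed at 0 in processed cells. Above 300 bases, 6.27% of 17110 other genes were higher and 5.76% lower. The study's methods give an average fragment longer than the U6, MIR622 and MIR492 entries. It is also longer than some entries of the middle class, while others, such as RNU2-2 (191 bases) and SNORD3A (216 bases), exceed it. Among those shorter than it, RNU1-1 (164 bases), RNU4-2 (141 bases) and SNORA2B (137 bases) were higher in processed cells. RNU4-1 (141 bases) and SNORA51 (132 bases) were lower. The part of fragment length in these values was not tested.

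**Figure D3:**
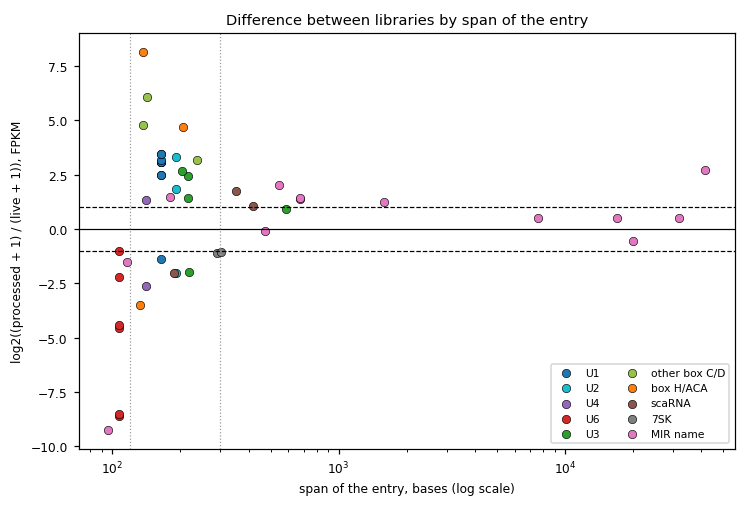
Log2((processed FPKM + 1)/(live FPKM + 1)) of the 50 entries against the span of the entry in bases on a log axis, coloured by class, with dashed lines at 2-fold and dotted lines at 120 and 300 bases. The 8 entries to the left of 120 bases all lie at or below the lower 2-fold line, and the 28 between the dotted lines all lie outside the 2-fold lines.

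Many small RNAs are encoded within introns or exons of longer genes, and 23 of the 50 entries lay inside such a gene in these tables. Where several genes held an entry, the one with the highest mean FPKM was taken as the surrounding gene. For 18 of them the surrounding gene was detected. Only 2 of these 18 entries, RNU1-2 and RNU2-2, reached the threshold in both libraries, so the rule itself made most of them differ, and nothing is read from a contrast with their surrounding genes. Past 2-fold were 17 of the 18 entries, 8 higher and 9 lower, against 6.57% and 6.19% of detected genes. Of the 18 surrounding genes, 0 were past 2-fold with the pseudocount of 1, against the same shares. With a pseudocount of 0.1, 3 were (PTCD3, PVT1 and BDNF-AS), 1 higher and 2 lower, against 9.9% and 10.1% of detected genes. The log2 ratios of the surrounding genes ran from -0.99 to 0.99 with a median of -0.06, and 9 had the opposite sign to their entry.

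The genes taken around the snoRNAs were well expressed, which their choice by level favours. KANSL2, a subunit of a histone acetyltransferase complex, which holds SNORA2B, had 33.3 FPKM in live cells versus 31.9 FPKM in processed cells. EIF4A1, the helicase of translation initiation, which holds SNORD10, had 346 and 287 FPKM. NOP56, a core protein of box C/D particles, which holds SNORA51, had 133 and 127 FPKM. The snoRNAs in them were each listed at 0 in 1 library. PTCD3, a mitochondrial ribosome protein, which holds SNORD94, was lower in processed cells, at 42.3 and 20.8 FPKM, and SNORD94 was higher.

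Of the 8 detected genes around U RNA entries, U3 included, 6 had the sign of their entry. PVT1, around the U1 entry of chromosome 8, had 4.78 and 1.94 FPKM, and CROCC, around RNU1-2, had 18.6 and 30.7 FPKM. Both went in the direction of their entry. HERC3, a ubiquitin ligase, which holds RNU6-33, had 2.99 and 3.001 FPKM beside 368 FPKM and a listing of 0. RFC1, the large subunit of the clamp loader, which holds the U6 entry at chr4:39299225-39299331, had 28.0 and 36.1 FPKM. WDR74, whose exon holds RNU2-2, had 21.5 and 30.04 FPKM. In that case the reads of RNU2-2 and of the WDR74 exon overlap and their division is uncertain.

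**Figure D4:**
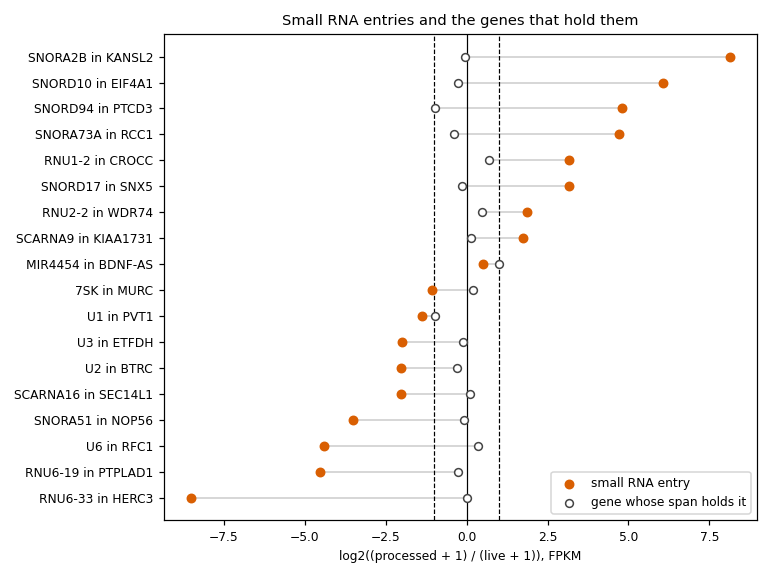
Log2((processed FPKM + 1)/(live FPKM + 1)) of the 18 entries that lie within a detected gene (orange) and of that gene (white), joined by a line, with dashed lines at 2-fold. The surrounding genes lie between -0.99 and 0.99, and 17 of the 18 entries, 16 of which were detected in 1 library alone, lie outside the 2-fold lines.

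The mRNAs of proteins that carry, cut or modify these RNAs were described from a list. Of 55 listed partner mRNAs 54 were matched by symbol. With the pseudocount of 1, 0 lay above and 0 below the 2-fold lines, against 6.57% and 6.19% of detected genes. With a pseudocount of 0.1 only GEMIN5 lay outside, on the lower side, against 9.9% of detected genes above and 10.1% below. The median log2 ratio was -0.10 against -0.09 over all detected genes. The list has 9 classes, and the medians of the larger ones lay close together, at -0.06 for the 4 box C/D core proteins, -0.07 for the 6 box H/ACA proteins, -0.12 for the 14 proteins of spliceosomal particles, -0.13 for the 9 U6 and La proteins and -0.01 for the 9 microRNA proteins. The 3 proteins of the 7SK particle had a median of -0.28, the 2 Cajal body proteins one of -0.30 and the 6 promoter factors of U RNA genes one of -0.05. The Y RNA protein TROVE2 had -0.71. The extremes were GEMIN5, which recognizes U RNAs for loading with Sm proteins, at -0.85 (7.28 FPKM in live cells and 3.58 FPKM after processing), and SNAPC5, a promoter factor of U RNA genes, at 0.71.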

How the data were processed

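RNA-seq of 1 live and 1 processed sample was analysed. The authors aligned reads to GRCh37 (hg19) with STAR 2.2.0c, guided by GENCODE release 14, and deposited FPKM values per gene with bounds and a status, from Cufflinks 2.0.2 according to the submitters' processing notes. Paired reads per sample are given in the study's methods only as a range, and the tables hold no fragment counts, so the depth of each library and the fragments behind each value are unknown, no count test was made and the precision rests on the bounds. Strand settings are not given in the sources used here. FPKM of an entry near or below fragment length divides few fragments by a small effective length and is imprecise. Levels across entries are per length.

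Samples were grouped by their labels and genes joined by identifier. Ratios used a pseudocount of 1 FPKM, and genes past 2-fold were counted without a test. Members and lists were chosen with earlier results of these data known. Entries in part of chromosome 6 (31350000 to 33100000) were left out. Named entries were those highest in each library, with the largest differences, highest in each family, listed at 0 in 1 library or nearest the threshold, with the genes around them, INS, GCG, SST, PDX1 and partner proteins. Entries were matched to GENCODE release 44 on GRCh37, in which 42 of 50 identifiers were found, 40 at the same place. Calculations used Python 3.11.15, pandas 2.3.3, pysam 0.24.0 and Biopython 1.88 and were tested on simulated data. Alternatives covered the pseudocount, threshold, scaling, status and shared names.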

Additional observations from a re-analysis of the deposited data

How the results depend on the processing

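No paired analysis was possible because each condition has 1 library, and no replicate could be left out. Fewer entries enter under most alternatives, which by itself lowers counts. The median log2 ratio of 1.37 stayed above 0 under every alternative run. With a pseudocount of 0.1 it was 1.5. With a pseudocount of 10 it was 0.32, with 18 entries higher and 7 lower. With an FPKM of at least 0.1, 67 entries had a median of 0.50, with 24 listed at 0 in processed cells alone and 7 in live cells alone. With at least 10, 28 entries had a median of 2.47, with 7 lower and 6 listed at 0 in processed cells alone. With at least 1 in both libraries, 20 entries had a median of 2.16, with 16 higher and 1 lower. Of the 16, 9 were the RNU1 genes, whose values are not 9 separate measurements. The share past 2-fold among the 14635 genes detected in both libraries was not computed. Nor was that of all genes at the other thresholds or with a pseudocount of 10. With status OK, 31 entries had 18 higher, 7 lower, 7 listed at 0 in processed cells alone and 1 in live cells alone. Without names that many loci share, 8 were lower and 7 listed at 0 in processed cells alone. The counts listed at 0 with status OK were added after seeing the data. In other alternatives chosen after seeing the data, the median was 0.72 without the U1 copies except RNU1-1 and 1.68 without entries over 300 bases. Scaling by the median ratio of genes detected in both libraries (0.932) shifted log2 ratios by 0.10 and turned MIR4426 to 0.00198. The other 49 entries kept their direction and their side of 2-fold there, and all 50 did so after rescaling to the same sum. A pseudocount of 10 left 19 entries no longer past 2-fold, and 0.1 brought MIR4519 (-1.08) and SNORD3B-1 (2.35) past it. With a pseudocount of 0.1, also added after seeing the data for these lists, 1 partner mRNA and 3 surrounding genes were past 2-fold, against 0 and 0. Of all detected genes, 9.9% were higher and 10.1% lower at that pseudocount.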
